A study of Mus musculus with 4 samples.

Results

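The cartilage regulators and non-collagen matrix genes Acan, Hapln1, Sox9, Sox5, Sox6, Matn1, Matn3, Comp, Ihh and Pth1r were examined in mouse embryonic fibroblasts that lacked Zfp871, Trp53 or both. They were chosen by name and matched by symbol to the identifiers of the count table, where all 10 were found among 54532 gene identifiers. RNA-seq was run on 4 libraries of C57BL/6 primary fibroblasts, taken from embryos at 12.5 to 13.5 days post-coitum and dividing at passage 4. With 1 library each, the groups were wild type (WT), the single nulls Zfp871-/- and Trp53-/-, and Trp53-/-; Zfp871-/-, called the double null. Per the labels, the intercross of Zfp871+/-; Trp53+/- mice yielded WT, Trp53-/- and double-null cells, and breeding of Zfp871+/- mice yielded WT, Zfp871+/- and Zfp871-/- cells. The Zfp871-/- library therefore came from another cross than both Trp53-null libraries, so cross and genotype cannot be told apart. Which cross gave the WT library, whether embryos were pooled and how the alleles were made were not given in the sources used here.

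Cartilage is made by chondrocytes, whose identity depends on the transcription factor SOX9 and on its partners SOX5 and SOX6, which bind DNA beside it and raise transcription of cartilage matrix genes. Much of that matrix is aggrecan (Acan), a large proteoglycan held on hyaluronan by the link protein HAPLN1, with matrilins and COMP as adaptors between collagen fibrils and other components. In the growth plate, Indian hedgehog (Ihh) from prehypertrophic chondrocytes and PTHrP, which acts through the receptor PTH1R, set the pace of chondrocyte maturation. The limb buds and somites of embryos of this age hold forming cartilage, and fibroblast cultures from whole embryos can carry cells of that lineage.

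Total counts were 19303167 in WT cells, 19974054 in Zfp871-/-, 21004078 in Trp53-/- and 22324599 in double-null cells. Levels are given as CPM, counts scaled to library size by the trimmed mean of M-values (TMM), and between genes as the deposited values per length, which behave as FPKM (fragments scaled to gene length and depth). All 12 fibroblast markers examined were at 1 CPM or more in each library. Trp53 had 126, 128, 56.4 and 59.5 CPM in WT, Zfp871-/-, Trp53-/- and the double null, and Zfp871 had 35.0, 17.3, 35.9 and 13.2 CPM, so each targeted gene was lower, but not absent, in the libraries labelled null for it. A gene was tested if it reached 1 CPM in at least 2 of the 4 libraries. Of the 10 genes, 6 did (Acan, Sox9, Sox5, Sox6, Matn3 and Pth1r), and 13306 genes did in all. Hapln1 and Comp were above that level in WT alone, and Matn1 and Ihh in no library. Sox5 and Sox6 reached it only in the Trp53-intact libraries, and Matn3 only in the Zfp871-null ones. For such genes the filter itself favours a difference between those groups, so their tests are not free of it.

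With 1 library per genotype, a ratio between a pair of libraries has no replicate check. It is given as a log2 ratio with a prior of 2 counts, beside an exact 95% interval that covers counting error only. The only test came from an additive model in edgeR that compares both Trp53-null libraries with both Trp53-intact ones, and likewise for Zfp871, and leaves 1 residual degree of freedom. In that model 5.01% of the 13306 genes rose and 4.31% fell with Trp53 loss at a Benjamini-Hochberg adjusted p below 0.05 (667 and 574 genes). Scaled by total counts, 867 rose and 423 fell. With Zfp871 loss 0% rose and 0% fell, and 3.83% had an unadjusted p below 0.05. In bulk RNA, fewer cells of a type and less RNA per cell cannot be told apart.

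On the mouse assembly GRCm38, Sox9 lies at chr11:112782224-112787760 on the plus strand, and Sox5 at chr6:143828425-144781977 and Sox6 at chr7:115470872-116038796, both on the minus strand. Acan lies at chr7:79053483-79115099, Hapln1 at chr13:89539796-89611652, Matn1 at chr4:130944385-130955475, Matn3 at chr12:8947929-8972028 and Comp at chr8:70373558-70382066, all on the plus strand. Ihh lies at chr1:74945315-74951672 and Pth1r at chr9:110722085-110747145, both on the minus strand. All 10 are protein-coding genes in the GENCODE M21 annotation. Exons of Sox5 share 1330 bases with the opposite-strand gene Sox5os1, which had 0 counts in every library. Exons of Pth1r share 95 bases with the opposite-strand gene Myl3, which had 7, 0, 4 and 0 counts in WT, Zfp871-/-, Trp53-/- and the double null.

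Sequences before annotated starts of Acan, Sox5 and Sox6, which were all far lower in the null libraries than in WT, are shown because SOX proteins recognise a short core, searched for here as the letters ACAATG and AACAAT, together with the TATA-box letters TATAAA. Both strands were read, and ACAATG and AACAAT can overlap. RefSeq (GRCm38.p6) gave 15 starts for 8 of the 10 genes, with none for Sox9 and Comp, and the 250 bases before each start were read. ACAATG was in 3 of these 15 windows, AACAAT in 1 and TATAAA in 1. Over all 32851 windows of the same length the shares were 10.7%, 9.42% and 12.4%. The 4 windows below lie outside the exons of their own genes. The window of Hapln1 lies within its exons and is not printed. Of the 6 Sox6 starts, 3 and 5 were picked because they hold ACAATG or AACAAT. The other 4 hold neither, although starts 2 and 6 also lie outside exons, and start 6 holds the TATAAA match. Other forms of the SOX core were not searched. The Acan window, chr7:79052976-79053225 on the plus strand, lies upstream of the gene and is 74.4% G or C. The windows of Sox5 (chr6:143947107-143947356) and Sox6 (chr7:115995087-115995336, start 3, and chr7:115824711-115824960, start 5) are on the minus strand, lie inside introns before internal starts, and are 39.6%, 41.6% and 41.6% G or C. The median over all windows was 52.4%. Each is written 5′ to 3′ on the gene's strand, with capitals for the letters of a match on either strand.
Acan: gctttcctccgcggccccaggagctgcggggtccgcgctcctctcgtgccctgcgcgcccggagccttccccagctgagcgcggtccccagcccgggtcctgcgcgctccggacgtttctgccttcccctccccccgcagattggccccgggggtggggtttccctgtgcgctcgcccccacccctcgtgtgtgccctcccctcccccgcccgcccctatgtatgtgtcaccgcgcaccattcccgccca
Sox5: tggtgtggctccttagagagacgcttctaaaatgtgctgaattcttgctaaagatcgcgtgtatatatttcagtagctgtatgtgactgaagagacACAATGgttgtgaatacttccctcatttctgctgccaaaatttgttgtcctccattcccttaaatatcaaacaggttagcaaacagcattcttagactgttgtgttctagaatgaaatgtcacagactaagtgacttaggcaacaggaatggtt
Sox6 start 3: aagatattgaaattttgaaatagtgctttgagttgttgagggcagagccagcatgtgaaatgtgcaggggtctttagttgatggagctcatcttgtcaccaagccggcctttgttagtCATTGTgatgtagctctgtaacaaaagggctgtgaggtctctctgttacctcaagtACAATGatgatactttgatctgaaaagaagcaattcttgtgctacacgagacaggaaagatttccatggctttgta
Sox6 start 5: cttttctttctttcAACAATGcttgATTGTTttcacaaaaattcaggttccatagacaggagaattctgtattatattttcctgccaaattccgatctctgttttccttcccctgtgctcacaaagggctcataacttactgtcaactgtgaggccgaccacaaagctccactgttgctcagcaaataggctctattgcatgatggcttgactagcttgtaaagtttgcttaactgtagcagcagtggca
The Acan window held none of the 3 motifs. The Sox5 window held ACAATG at 154 bases before the start. In Sox6, start 3 had ACAATG at 132 bases before the start, on the opposite strand, and at 76 bases. Start 5 had ACAATG at 235 bases, overlapping AACAAT at 236 bases, and a further AACAAT on the opposite strand at 225 bases. A match of letters is a description of the sequence and not a binding site.

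Among the transcription factors, Sox5 and Sox6 were far lower in all 3 null libraries than in WT, while Sox9 was near its WT level. Sox9, the master regulator of chondrocyte fate, had 42.3 CPM in WT cells, 40.9 in Zfp871-/-, 29.9 in Trp53-/- and 33.3 in double-null cells. Its 4 values span a narrow range, with the 2 Trp53-null libraries lowest. The log2 ratio of Zfp871-/- to WT was -0.05 (95% interval -0.19 to 0.10), and that of Trp53-/- to WT was -0.50 (-0.65 to -0.35). In the edgeR model Sox9 had a log2 change of -0.40 with Trp53 loss (SE 0.13, adjusted p = 0.133) and 0.05 with Zfp871 loss (SE 0.13, adjusted p = 0.949).

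Sox6, which encodes a SOX protein without a transactivation domain of its own, had 29.2 CPM in WT cells, 2.60 in Zfp871-/-, 0.275 in Trp53-/- and 0.129 in double-null cells. These came from 551, 49, 6 and 3 counts, so the order of the null libraries follows Trp53 status. It was 11.2-fold lower in Zfp871-/- than in WT (log2 ratio -3.44, 95% interval -3.94 to -3.07) and 106-fold lower in Trp53-/- than in WT (-6.30, -8.18 to -5.60). The double null was also lower than Zfp871-/-, by 20.1-fold (-3.58, -6.66 to -2.70). Between the double null and Trp53-/-, 3 against 6 counts, the interval spanned 0 (-0.72, -3.72 to 1.14), so a difference was not detectable at this depth. Sox6 fell with Trp53 loss by 6.00 on the log2 scale (SE 0.593, edgeR adjusted p = 0.0213), and it was the only tested gene of the 10 that passed. It met the level filter only through both Trp53-intact libraries, so its entry into this test required a high level in that group. Hapln1 and Comp, high in WT alone, were left out by the same filter. With Zfp871 loss its fitted log2 change was -3.13 (SE 0.544, unadjusted p = 0.00357, edgeR adjusted p = 0.874).

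Sox5, the close relative of Sox6 that acts with it, had 17.1 CPM in WT cells, 1.96 in Zfp871-/-, 0.961 in Trp53-/- and 0.559 in double-null cells, from 322, 37, 21 and 13 counts. WT stood above the rest, and the 3 null libraries were all below 2 CPM. Zfp871-/- was 8.69-fold lower than WT (log2 ratio -3.06, 95% interval -3.65 to -2.63), and Trp53-/- was lower by 4.02 on the same scale (-4.02, -4.86 to -3.51). The double null was 3.51-fold lower than Zfp871-/- (-1.65, -2.85 to -0.87), while against Trp53-/- the interval spanned 0 (-0.69, -1.90 to 0.28). With Trp53 loss the fitted log2 change was -3.15 (SE 0.664, edgeR adjusted p = 0.0623), which missed the threshold. It passed in DESeq2 (adjusted p = 0.000187), in limma-voom (adjusted p = 0.0402) and in edgeR without the level filter (adjusted p = 0.00728). Like Sox6, it met the level filter only through both Trp53-intact libraries.

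**Figure D1:**
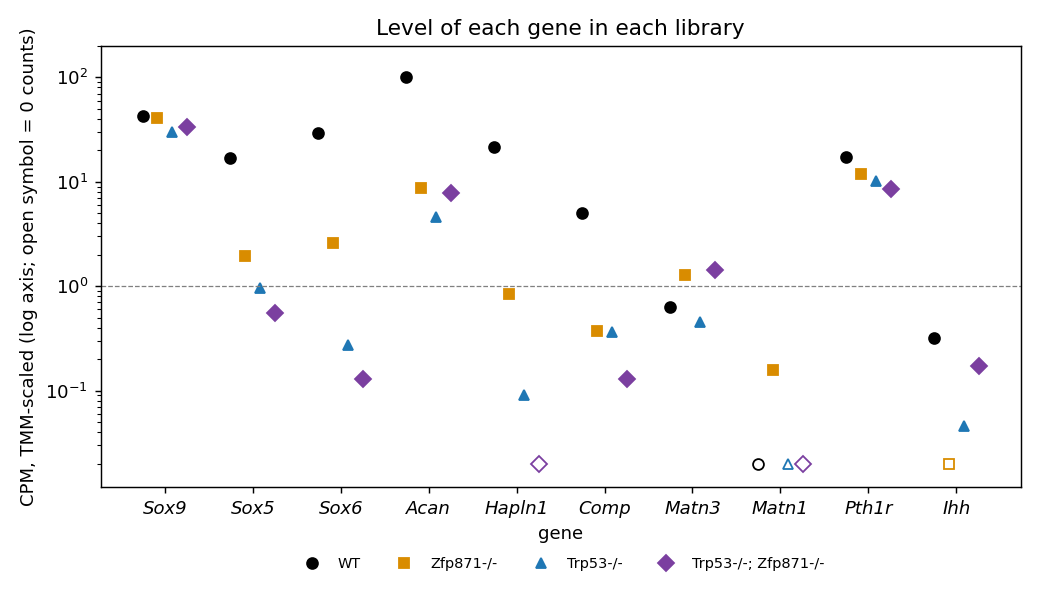
Level of each of the 10 genes in each library, in TMM-scaled CPM on a log axis, with 1 point per library and open symbols for 0 counts. Acan, Hapln1, Sox5, Sox6 and Comp have the WT point far above the 3 null points, while the 4 points of Sox9 lie between 29.9 and 42.3 CPM.

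The matrix genes Acan, Hapln1 and Comp were likewise highest in WT, and the matrilin genes Matn3 and Matn1 were low, at no more than 1.42 CPM in any library. Acan, the core protein of the main cartilage proteoglycan, had 102 CPM in WT cells, 8.81 in Zfp871-/-, 4.58 in Trp53-/- and 7.74 in double-null cells, from 1919, 166, 100 and 180 counts. Only WT stood apart: the 3 null libraries lay within 2-fold of each other. It was 11.5-fold lower in Zfp871-/- (log2 ratio -3.51, 95% interval -3.77 to -3.30), 22.2-fold lower in Trp53-/- (-4.44, -4.78 to -4.18) and 13.1-fold lower in the double null (-3.70, -3.94 to -3.49) than in WT. The double null was 1.69-fold higher than Trp53-/- (0.75, 0.40 to 1.13), the opposite sign to the Zfp871-/- to WT ratio. Against Zfp871-/- its interval spanned 0 (-0.18, -0.50 to 0.13). In the additive edgeR model the log2 change of Acan was -2.36 with Trp53 loss (SE 1.20, adjusted p = 0.265) and -1.53 with Zfp871 loss (SE 1.20, adjusted p = 0.874), and neither passed.

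Hapln1, the link protein that locks aggrecan to hyaluronan, had 21.4 CPM in WT cells, 0.849 in Zfp871-/-, 0.0915 in Trp53-/- and 0 in double-null cells, from 404, 16, 2 and 0 counts. A count of 0 in the double null allows a level of up to 0.129 CPM, taken as 3 counts of that library. WT was the high library, and Zfp871-/- lay between WT and both Trp53-null libraries. It was 25.2-fold lower in Zfp871-/- than in WT (log2 ratio -4.51, 95% interval -5.48 to -3.94). The ratio of Trp53-/- to WT rests on 2 counts in Trp53-/- and was -6.84 (-10.92 to -6.01). Against the 3-count limit, the double null was at least 6.57-fold lower than Zfp871-/- and at least 166-fold lower than WT. Hapln1 was not tested because of the level filter. Without that filter it passed in edgeR for Trp53 loss (log2 change -7.75, adjusted p = 8.61e-05) and for Zfp871 loss (-4.64, adjusted p = 0.0319), where 4.52% and 0.0152% of the 26366 genes then tested fell.

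Comp, a pentameric thrombospondin-family protein of cartilage and tendon, had 5.03 CPM in WT cells, 0.371 in Zfp871-/-, 0.366 in Trp53-/- and 0.129 in double-null cells, from 95, 7, 8 and 3 counts. WT was again the high library, and each null library was below 10 counts. The log2 ratio to WT was -3.45 (95% interval -5.11 to -2.66) in Zfp871-/-, -3.47 (-5.03 to -2.74) in Trp53-/- and -4.51 (-7.59 to -3.69) in the double null. Both ratios of the double null to a single null had intervals that spanned 0. Comp was not tested because of the level filter, and without it Comp passed in edgeR for Trp53 loss (log2 change -3.09, adjusted p = 0.0195) and not for Zfp871 loss (-3.03, adjusted p = 0.588).

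Matn3, a matrilin of growth plate cartilage, went the other way between libraries: it had 0.636 CPM in WT cells, 1.27 in Zfp871-/-, 0.458 in Trp53-/- and 1.42 in double-null cells. The counts were 12, 24, 10 and 33, and the Zfp871-null libraries were the higher ones. The double null was 3.10-fold higher than Trp53-/- (log2 ratio 1.45, 95% interval 0.58 to 2.82), while the interval of Zfp871-/- to WT spanned 0 (0.90, -0.05 to 2.14). The fitted log2 change with Zfp871 loss was 1.31 (SE 0.444, unadjusted p = 0.0383, edgeR adjusted p = 0.874), so it did not pass. Matn3 met the level filter only through both Zfp871-null libraries, so its entry into this test required a high level there. Matn1, the founding matrilin and a marker of mature hyaline cartilage, had 3 counts in Zfp871-/- and 0 in the other 3 libraries. Its level was at or under the 3-count limit of 0.129 to 0.159 CPM in every library.

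For the signalling genes, the receptor was readily measured and the ligand was not. Pth1r, the receptor for PTHrP and parathyroid hormone, had 17.4 CPM in WT cells, 11.9 in Zfp871-/-, 10.2 in Trp53-/- and 8.56 in double-null cells, from 329, 224, 223 and 199 counts. WT was highest and the double null lowest, over a range of 2.04-fold. The log2 ratio to WT was -0.55 (95% interval -0.80 to -0.30) in Zfp871-/-, -0.77 (-1.02 to -0.52) in Trp53-/- and -1.02 (-1.29 to -0.77) in the double null. The fitted log2 change of Pth1r was -0.62 with Trp53 loss (SE 0.195, edgeR adjusted p = 0.122) and -0.40 with Zfp871 loss (SE 0.194, edgeR adjusted p = 0.874), and neither passed. Ihh, the hedgehog ligand of the growth plate, had 6 counts in WT cells, 0 in Zfp871-/-, 1 in Trp53-/- and 4 in double-null cells. These numbers do not allow an order of the null libraries to be read.

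**Figure D2:**
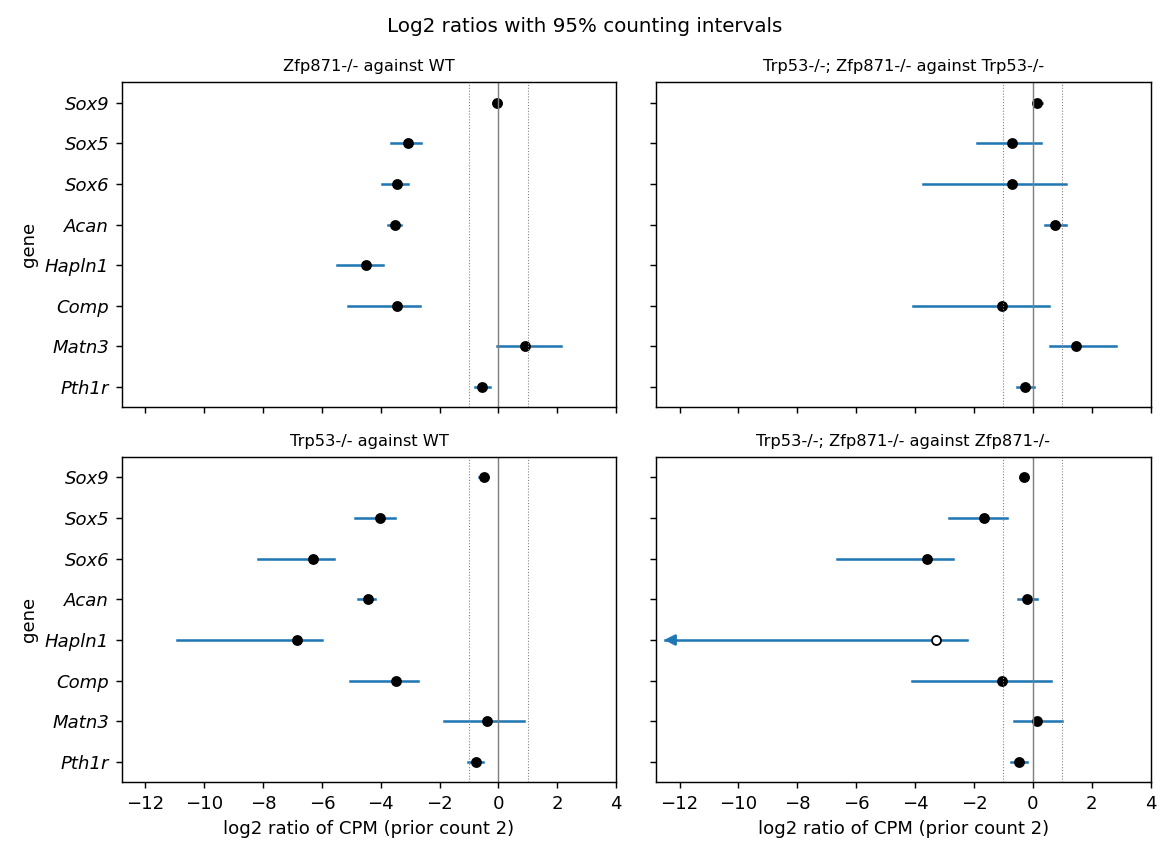
Log2 ratio of CPM (prior count 2) for each gene except Matn1 and Ihh in pairs of libraries, 1 panel per pair, with 95% counting intervals as bars. The double null against WT is not drawn, nor is a ratio with both counts at or under the 3-count limit. Against WT, the points of Acan, Hapln1, Sox5, Sox6 and Comp lie below -3 in both single nulls, while Sox9 lies between -0.50 and -0.05.

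Read against all tested genes, the counts of the 6 tested members were as follows. In Zfp871-/- against WT, 3 of the 6 (Acan, Sox5 and Sox6) were at least 2-fold lower and 0 at least 2-fold higher, beside 3.98% and 3.52% of the 13306 genes. In Trp53-/- against WT, the same 3 were at least 2-fold lower and 0 higher, beside 8.88% and 8.9% of all genes. In the double null against WT, 4 were lower (Acan, Sox5, Sox6 and Pth1r) and 1 higher (Matn3), beside 9.23% and 8.79%. In the double null against Zfp871-/-, Sox5 and Sox6 made 2 lower and 0 were higher, beside 6.33% and 5.51%. In the double null against Trp53-/-, 0 were lower and 1 higher (Matn3), beside 1.01% and 0.819%. Sox5 and Sox6 met the level filter only through both Trp53-intact libraries, and Matn3 only through both Zfp871-null ones. Their places in these counts are therefore not free of the filter. The median log2 ratio of the 6 was -1.80 in Zfp871-/- against WT and -2.39 in Trp53-/- against WT, and over all genes it was within 0.005 of 0 in each pair. The pairs share libraries, so their counts are not independent, and the Zfp871-/- and Trp53-/- ratios both have the same WT library as their base. WT was the high library for each of these lower genes, and no comparison of a single null with an intact control is free of it.

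Compared per length, the order of the 10 genes differed between WT and the null libraries. In WT the FPKM values were 13.5 for Acan, 10.2 for Sox9, 5.93 for Pth1r, 3.61 for Hapln1, 1.96 for Sox6, 1.69 for Comp and 1.18 for Sox5, followed by 0.210 for Matn3, 0.104 for Ihh and 0 for Matn1. In Zfp871-/- the order began with Sox9 at 9.90 FPKM, Pth1r at 4.07, Acan at 1.18 and Matn3 at 0.423. In Trp53-/- it began with Sox9 at 7.20, Pth1r at 3.47 and Acan at 0.610, and in the double null with Sox9 at 8.05, Pth1r at 2.93 and Acan at 1.04. Acan thus led in WT, and Sox9 led in the 3 null libraries. Without replicates, neighbours in these orders have no spread over samples to be judged by.

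Of the 6 tested members, 4 had an unadjusted edgeR p below 0.05 with Trp53 loss (Sox9, Sox5, Sox6 and Pth1r), all with lower levels, beside 31% of all genes in either direction. Scaled by total counts, 2 of them (Sox5 and Sox6) had such a p. With Zfp871 loss there were 3 (Sox5 and Sox6 lower, Matn3 higher), beside 3.83% of all genes. Matn3 met the level filter only through both Zfp871-null libraries, and Sox5 and Sox6 only through both Trp53-intact ones. Their p-values for those factors are therefore not free of the filter. After adjustment the counts were 1 and 0. DESeq2 and limma-voom each called 2 members for Trp53 loss (Sox5 and Sox6, both lower) and 0 for Zfp871 loss, where 5.98% and 5.08% of all genes fell with Trp53 loss. For Zfp871 loss the smallest adjusted p over all genes in edgeR was 0.849.

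The genes around these 10 in cartilage biology were read from 9 lists that hold 107 other genes of the table, of which 75 were tested. With Trp53 loss 13 of the 75 fell and 0 rose in edgeR, beside 4.31% and 5.01% of all genes. The 13 were Col9a3, Col10a1, Col11a1, Prg4, Prelp, Zbtb20, Cdon, Disp1, Has2, Chpf2, Ugdh, Adamts5 and Timp3. Of these, Col9a3 and Col10a1 met the level filter only through both Trp53-intact libraries. Scaled by total counts, Zbtb20 (edgeR adjusted p = 0.0554) and Adamts5 (edgeR adjusted p = 0.0628) were not called, and in DESeq2 Col9a3 was not (adjusted p = 0.0642). With Zfp871 loss 0 of the 75 passed, in edgeR, DESeq2 and limma-voom alike. An unadjusted edgeR p below 0.05 was found for 7 of the 75, beside 3.83% of all genes. Without the level filter edgeR tested 103 listed genes and called 26 lower and 2 higher for Trp53 loss, beside 4.52% and 4.22% of 26366 genes. For Zfp871 loss it called 1, Col10a1, lower, beside 0.0152% of all genes.

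Of the cartilage collagens, which form the fibrils that aggrecan fills, 6 of 8 were tested, and 3 fell with Trp53 loss. Col2a1, the main fibril collagen and a direct SOX9 target, had 616 CPM in WT cells, 29.6 in Zfp871-/-, 1.14 in Trp53-/- and 2.15 in double-null cells. Its fitted log2 change with Trp53 loss was -6.48 (edgeR adjusted p = 0.0680), which missed the threshold. It passed in DESeq2 (adjusted p = 0.00533) and limma-voom (adjusted p = 0.0350). Col10a1, the collagen of hypertrophic chondrocytes, fell with Trp53 loss by 7.71 on the log2 scale (edgeR adjusted p = 0.0183), with 258, 9.71, 0.732 and 0.301 CPM in the same order. Col11a1, a minor fibril collagen, fell by 1.97 on the log2 scale (edgeR adjusted p = 0.0302), with 550, 438, 101 and 155 CPM. In Zfp871-/- its log2 ratio to WT was -0.33. The median log2 ratio of the 6 collagens was -1.03 in Zfp871-/- against WT and -2.38 in Trp53-/- against WT.

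Among other chondrocyte genes, 3 of the 12 in the table were tested. Prg4, the lubricin of the joint surface, fell with Trp53 loss by 4.25 on the log2 scale (edgeR adjusted p = 0.0434), with 70.3, 12.3, 1.46 and 1.72 CPM in WT, Zfp871-/-, Trp53-/- and the double null. Prelp, a small leucine-rich proteoglycan, fell by 2.72 (edgeR adjusted p = 0.00781), with 102, 134, 15.2 and 21.0 CPM. Prelp was thus not lower in Zfp871-/- than in WT, whereas Prg4 was low in all 3 null libraries.

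Of 17 listed transcription regulators of chondrocytes, 12 were tested and 1 fell with Trp53 loss: Zbtb20, a zinc finger repressor, by 1.16 on the log2 scale (edgeR adjusted p = 0.0416). Trps1, a GATA-type repressor of the growth plate, had 144 CPM in WT cells, 31.1 in Zfp871-/-, 10.9 in Trp53-/- and 15.02 in double-null cells (edgeR adjusted p = 0.113 for Trp53 loss). Foxc1, a forkhead factor of skeletal mesenchyme, had 43.8, 11.5, 9.70 and 11.1 CPM (adjusted p = 0.257 in edgeR). Both had WT far above the null libraries, as Sox5 and Sox6 did, without passing. Without the level filter Trps1 passed in edgeR for Trp53 loss (adjusted p = 0.0234), but in DESeq2 it did not (adjusted p = 0.178). Runx3, which drives hypertrophy together with Runx2, had its low value in Zfp871-/- instead, at 4.56 CPM beside 14.3 in WT, 19.9 in Trp53-/- and 16.0 in the double null.

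In the hedgehog pathway, in which Ihh is a ligand, 10 of 15 genes were tested and 2 fell with Trp53 loss. Cdon, a hedgehog co-receptor, fell by 1.23 on the log2 scale (edgeR adjusted p = 0.0196), and Disp1, which releases the ligand from cells, fell by 0.97 (edgeR adjusted p = 0.0303). Hhip, a decoy receptor and target gene of the pathway, had 9.53 CPM in WT cells, 3.66 in Zfp871-/-, 1.14 in Trp53-/- and 2.07 in double-null cells (edgeR adjusted p = 0.135 for Trp53 loss). It passed narrowly in DESeq2 (adjusted p = 0.0468) but not in limma-voom (adjusted p = 0.105). Gas1, another co-receptor, had 122, 42.9, 83.4 and 55.5 CPM, with both Zfp871-null libraries low (unadjusted p = 0.0113, edgeR adjusted p = 0.874 for Zfp871 loss). Of the PTHrP and FGF growth plate genes, the company of Pth1r, 6 of 13 were tested and 0 passed for Trp53 loss. Npr2, the C-type natriuretic peptide receptor that promotes growth plate growth, had 119, 65.9, 46.3 and 43.2 CPM (edgeR adjusted p = 0.0634 for Trp53 loss). It passed in DESeq2 (adjusted p = 0.00219) but not in limma-voom (adjusted p = 0.0526).

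The direction of the tested relatives and partners of aggrecan depended on the pair of libraries. Of the lecticans, link proteins and hyaluronan genes, 6 of 10 were tested, and 1 fell with Trp53 loss: Has2, a hyaluronan synthase, by 1.01 on the log2 scale (edgeR adjusted p = 0.0351). Vcan, the lectican versican of loose mesenchyme, had 536 CPM in WT cells, 1078 in Zfp871-/-, 641 in Trp53-/- and 600 in double-null cells. WT thus had the lowest Vcan level and the highest Acan level (Vcan adjusted p = 0.550 for Trp53 loss and 0.874 for Zfp871 loss in edgeR). All 6 had a positive log2 ratio in Zfp871-/- against WT (median 0.77). In Trp53-/- against WT 4 were positive and 2 negative (median 0.17). All 6 relatives of the matrilins and of Comp among the thrombospondins were tested and 0 passed in edgeR. Thbs1 was called lower with Trp53 loss in DESeq2 (adjusted p = 0.00031) and limma-voom (adjusted p = 0.0367). Thbs4, which is nearest in kind to Comp, had 4.08, 1.64, 1.42 and 1.76 CPM, so WT was its highest library too.

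Chondroitin sulphate is the sugar chain that loads aggrecan. All 21 listed genes of its synthesis found in the table were tested, and 2 fell with Trp53 loss in edgeR: Chpf2, a chain polymerising factor, by 0.74 on the log2 scale (adjusted p = 0.0363), and Ugdh, which makes the UDP-glucuronate precursor, by 0.71 (adjusted p = 0.0376). The list's median log2 ratio was -0.04 in Zfp871-/- against WT and -0.34 in Trp53-/- against WT. Csgalnact1, which starts the chains, had 40.8 CPM in WT cells, 95.9 in Zfp871-/-, 66.4 in Trp53-/- and 65.4 in double-null cells, and Chst3, which sulphates them, had 3.13, 1.43, 0.778 and 0.559 CPM. Of the 6 tested aggrecanases and their inhibitor, 2 fell with Trp53 loss in edgeR. These were Adamts5, the main aggrecanase of mouse cartilage, by 0.59 on the log2 scale (adjusted p = 0.0458), and the inhibitor Timp3, by 1.22 (adjusted p = 0.0375).

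**Figure D3:**
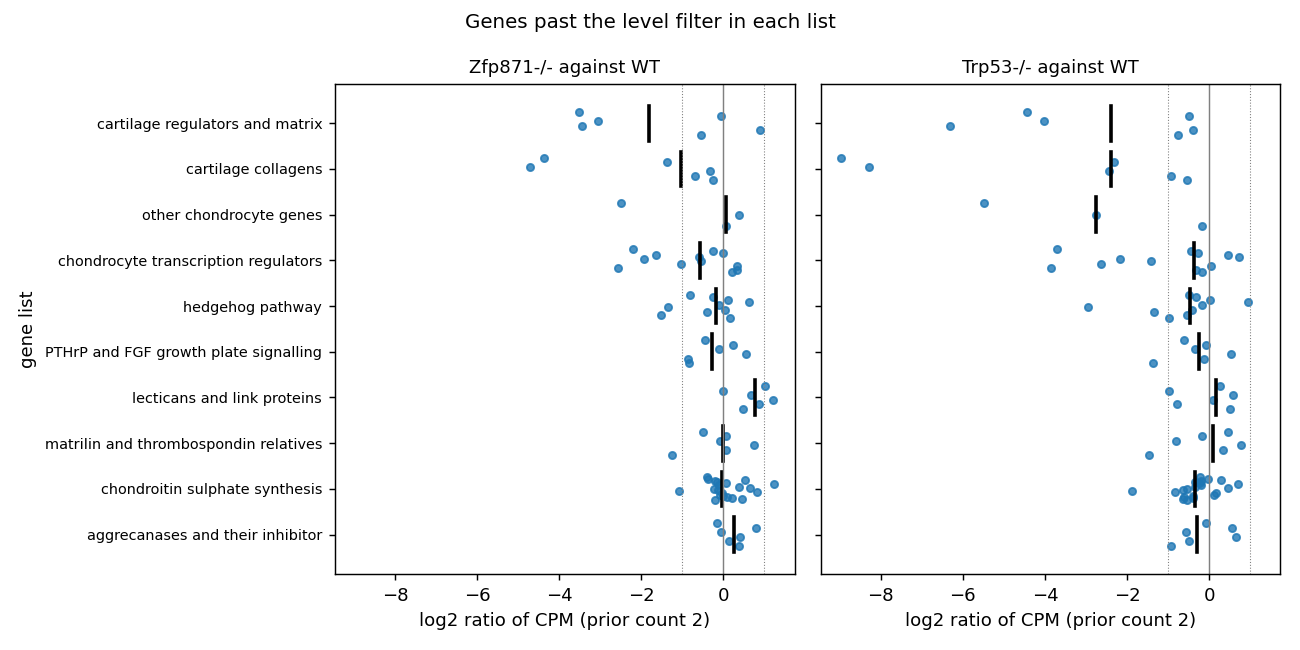
Log2 ratio of CPM (prior count 2) for each tested gene of each list, in Zfp871-/- against WT and in Trp53-/- against WT, with 1 point per gene and a bar at each list's median. The regulators and matrix genes and the collagens reach far to the left, with medians of -1.80 and -1.03 in Zfp871-/- against WT, while chondroitin sulphate synthesis has its median at -0.04.

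The genes whose profile over the 4 libraries lay nearest to each member were found among 12319 genes, by the root mean square difference of log2 CPM after each gene's mean was subtracted. Nearest to Sox6 were Hoxd13, which patterns the distal limb (0.299), Itih2 (0.539) and Hoxd11, a further posterior limb Hox gene (0.618). Hoxd13 had 1904, 142, 14 and 14 counts in WT, Zfp871-/-, Trp53-/- and the double null. Nearest to Hapln1 were Sox6 (0.391), Hoxd13 (0.430) and Col10a1 (0.699). Nearest to Sox5 were Ism1 (0.267), Pcdh10 (0.296) and Bmp4 (0.297), the last a bone morphogenetic protein of limb and other mesenchyme, with 2303, 198, 90 and 75 counts. Acan lay nearest to Ppbp (0.207), Slc24a3 (0.277) and Rcan2 (0.297), and Comp to Stk26 (0.316), Coch (0.339) and Sox5 (0.342). The nearest genes of Sox9 and Pth1r, which varied least among the measured members, were Ctif (0.0141), C1galt1 (0.0174) and Ube3b (0.0184) for Sox9, and Zfp612 (0.0108), 2410022M11Rik (0.0198) and Tmem203 (0.0232) for Pth1r. With 4 libraries many genes can lie this near, and the distances are descriptions only.

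Markers of other cell types also differed between the libraries, and their part in the values above was not tested. The summed level of the 12 macrophage markers was 70.5 CPM in WT cells, 80.1 in Zfp871-/-, 1011 in Trp53-/- and 915 in double-null cells, and all 12 rose with Trp53 loss in edgeR. The summed level of the 12 fibroblast markers was 44114, 45795, 37446 and 33358 CPM, of which Col1a1 gave 14861, 15804, 10250 and 8839. Single fibroblast markers moved both ways. In Trp53-/- against WT 4 were at least 2-fold higher and 1 lower, beside 8.9% and 8.88% of all genes. In Zfp871-/- against WT 2 were higher and 1 lower, beside 3.52% and 3.98%. Thy1 had 347, 869, 1138 and 959 CPM, and Lum 116, 31.7, 17.9 and 9.34 CPM. The tendon regulator Scx, which marks progenitors shared with cartilage, had 22.5, 3.71, 1.46 and 2.02 CPM, the same order of WT over null libraries as Acan, and it did not pass for Trp53 loss (edgeR adjusted p = 0.142). Scx passed in DESeq2 (adjusted p = 0.00286) and in edgeR without the level filter (adjusted p = 0.0465), but not in limma-voom (adjusted p = 0.0855). The 8 tendon markers summed to 4105, 7772, 5374 and 4610 CPM, of which Tnc alone gave 3819, 7510, 5260 and 4475. The others summed to 286, 263, 114 and 135 CPM, so that WT was the highest library without Tnc. Of the 7 tested tendon markers, 5 were lower in Zfp871-/- than in WT (median log2 ratio -0.50) and 6 were lower in Trp53-/- than in WT (median -1.03). Fmod and Egr1 fell with Trp53 loss (log2 changes -1.63 and -0.87, edgeR adjusted p = 0.0102 and 0.0350). The 10 osteoblast markers summed to 1595, 1078, 517 and 666 CPM, of which Spp1 gave 1509, 990, 441 and 576. The others summed to 86.1, 87.3, 76.0 and 90.1 CPM. Sp7, the osteoblast-defining factor, had 1.91, 4.51, 2.29 and 4.26 CPM, and 0 of the 4 tested osteoblast markers passed.

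SOX5, SOX6 and SOX9 also act in neural crest derivatives and neurons, so those markers were read beside them. The 9 neural crest and Schwann cell markers summed to 23.8, 30.7, 20.4 and 25.3 CPM in WT, Zfp871-/-, Trp53-/- and the double null, and to 15.3, 19.1, 6.45 and 6.50 CPM without Mbp. Of the 6 tested, 5 were lower in Trp53-/- than in WT (median log2 ratio -1.33). At least 2-fold lower were 4 of them, beside 8.88% of all genes. Sox10, Erbb3 and Cdh19 met the level filter only through both Trp53-intact libraries, so the filter favoured a lower level with Trp53 loss. In Zfp871-/- against WT, 5 of the 6 were higher (median 0.63). Sox10, the defining factor of that lineage, had 1.85, 2.92, 0.320 and 0.258 CPM and fell with Trp53 loss (log2 change -2.996, edgeR adjusted p = 0.0398), as did Cdh19, a Schwann cell precursor cadherin (-5.24, edgeR adjusted p = 0.0275). Both were highest in Zfp871-/-, not in WT. The 8 neuron markers summed to 90.5, 99.4, 115 and 113 CPM, of which Tubb3 gave 43.3, 82.8, 91.7 and 88.9. The others summed to 47.2, 16.5, 23.3 and 23.8 CPM, with WT highest, as in the cartilage genes. Stmn2 had 17.9, 6.63, 2.38 and 3.44 CPM, Map2 25.7, 8.65, 19.4 and 17.8 CPM, and Syt1 3.23, 0.371, 0.0458 and 0.387 CPM. Elavl4 went the other way and, like Tubb3, was lowest in WT, with 0.212, 0.424, 1.42 and 1.94 CPM. Of the 4 tested neuron markers 0 passed for Trp53 loss. The 10 skeletal muscle markers summed to 15.5, 18.8, 5.81 and 11.1 CPM. The 8 epithelial markers summed to 6.83, 21.0, 14.9 and 14.8 CPM, and the 8 endothelial markers to 13.8, 26.1, 18.6 and 20.7 CPM. The 10 cartilage regulators and matrix genes themselves summed to 235, 68.8, 46.9 and 52.0 CPM, and of the 10 there were 7, 6, 3 and 4 at 1 CPM or more.

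**Figure D4:**
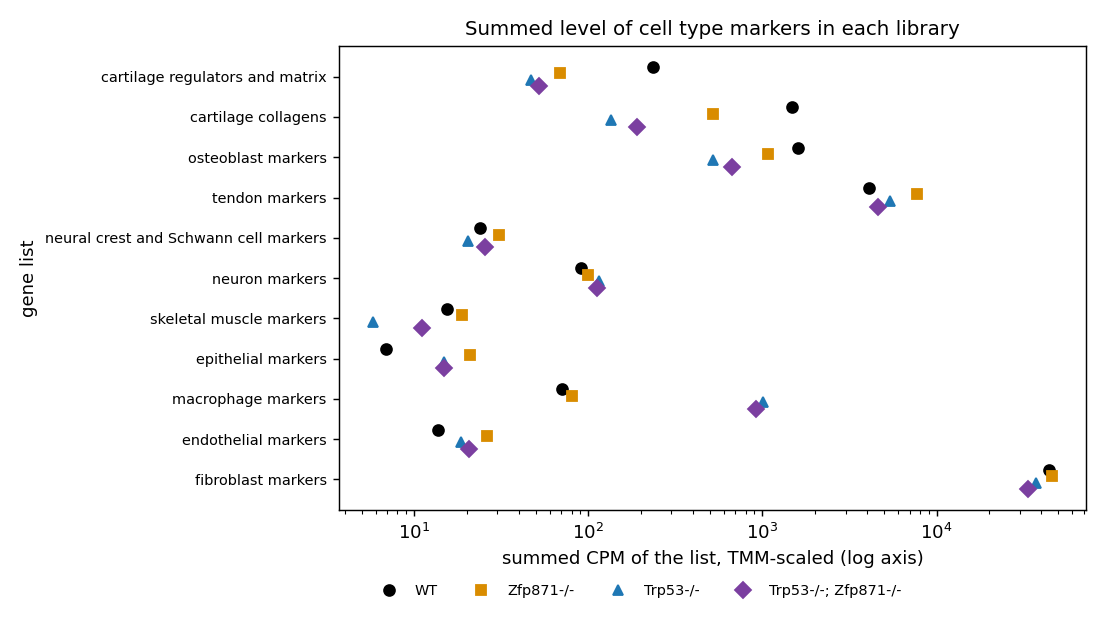
Summed TMM-scaled CPM of each marker list in each library, on a log axis with 1 symbol per library. The cartilage regulators and matrix genes and the cartilage collagens have WT highest, the macrophage markers have both Trp53-null libraries highest at 1011 and 915 CPM, and the fibroblast markers lie between 33358 and 45795 CPM.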

How the data were processed

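Gene counts and a second table of values per length were deposited by the authors for 4 mouse fibroblast libraries. Per the submitters' processing notes the tools were fastp, STAR and featureCounts and the genome build was mm10; versions, annotation and strand setting were not given in the sources used here, so reads of overlapping opposite-strand genes cannot be told apart. The second table names no unit. Its deposited values were treated as FPKM because, in 10906 genes with at least 50 counts in each library, they equalled the deposited counts over a constant gene length, times 1 scale per library, and 95.0% of the lengths were within 0.1% of the GENCODE M21 exon union.

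Counts were scaled and tested with edgeR 4.0.16 (R 4.3.3): TMM factors, a filter of 1 CPM in at least 2 libraries, and a quasi-likelihood fit with additive Trp53 and Zfp871 terms (4 libraries, 1 residual degree of freedom, common dispersion 0.0302) with Benjamini-Hochberg adjustment over 13306 genes. That test assumes that the effects of the losses add, and its spread is estimated from the departure of these 4 libraries from additivity. Pair ratios used a prior of 2 counts and exact Clopper-Pearson 95% intervals of the raw counts, which cover counting error only; a count of 0 was bounded by 3 counts. Alternatives were DESeq2 1.42.0, limma 3.58.1 (voom), other scalings and prior counts, no filter, and the deposited FPKM with a pseudocount of 0.1. The edgeR fit was tested on simulated counts with additive changes only. That setting does not cover genes that depart from additivity, such as Acan.

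The naming rule covered the 10 members, Trp53 and Zfp871. From each list it took up to 4 genes at least 2-fold apart from WT in a single null, by mean CPM (otherwise the 2 highest). It also took the 3 nearest genes of each member with at least 50 counts in its highest library. Not every gene it took is named above. Has1, Adamts1 and many picks from the marker lists, among them all macrophage, epithelial, endothelial and skeletal muscle ones, are left out. Disp1, Has2, Chpf2, Ugdh and Adamts5 were named after their values were seen, as members of short counts of called genes. Tnc, Mbp, Syt1, Col1a1, Lum and Thbs1 were also named, and list sums without the highest gene added, after the values were seen. The members and lists were chosen with earlier results of these data known. Promoter windows are from RefSeq (GRCm38.p6).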

Additional observations from a re-analysis of the deposited data

Results flagged for a closer look

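Acan had opposite signs in the Zfp871 contrast with Trp53 intact and with Trp53 lost. Its log2 ratio was -3.51 in Zfp871-/- against WT (166 against 1919 counts, WT higher) and 0.75 in the double null against Trp53-/- (180 against 100 counts, double null higher), and both counting intervals excluded 0. It drew attention because the single library of each group moved opposite ways; the difference was not tested, since each genotype has 1 library.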

How the results depend on the processing

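The call of Sox6 for Trp53 loss held under the 5 alternative fits run. The number of members called for Trp53 loss was 1 and became 4 without the level filter (Hapln1, Sox5, Sox6 and Comp), 2 in DESeq2 and 2 in limma-voom (Sox5 and Sox6 in both). For Zfp871 loss it was 0 and became 1 without the filter (Hapln1). Listed cartilage genes called for Trp53 loss numbered 13 and became 28 without the filter (2 higher, 26 lower), 19 in DESeq2 (without Col9a3), 17 in limma-voom and 11 with total counts (without Zbtb20 and Adamts5), and those for Zfp871 loss went from 0 to 1. Over all genes, 667 rose and 574 fell with Trp53 loss, and scaling by total counts gave 867 and 423. That scaling moved the median log2 ratio of all genes by up to 0.14 (the double null against Zfp871-/-), and no member's ratio changed sign. For Zfp871 loss 0 genes passed in edgeR and limma-voom, and 7 did in DESeq2. Members at least 2-fold apart numbered 3 in Zfp871-/- against WT, 1 in the double null against Trp53-/-, 3 in Trp53-/- against WT and 2 in the double null against Zfp871-/-. When all members with at least 10 counts over the 4 libraries entered, a rule chosen after seeing the data, they became 6, 2, 6 and 5. Of these, 6, 1, 6 and 4 were lower and 0, 1, 0 and 1 higher. Ihh, with 6, 0, 1 and 4 counts, is among those in all but the double null against Trp53-/-. The share of all genes under that rule was not computed. With the authors' FPKM and a pseudocount of 0.1, the double null against Zfp871-/- gave 1 and the double null against WT gave 3, where CPM gave 2 and 5. Sox5, no longer counted in the first of these, had 0.137 FPKM in Zfp871-/- and 0.0389 in the double null, near that pseudocount. Of the members' ratios under other scalings and prior counts, 186 stayed within their counting interval and 2 moved, both for Hapln1, and 0 reversed. The causes of these shifts were not tested. No paired analysis was possible because each genotype has 1 library and the labels give no replicate numbers; leaving out a library leaves 0 residual degrees of freedom. Depth limits Matn1, Ihh, Matn3 and the double-null values of Hapln1, Sox6 and Comp.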
